A study of Mus musculus with 5 samples.

Results

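Tenomodulin (Tnmd) and chondromodulin (Cnmd, listed in older annotation as Lect1) are a pair of paralogous membrane proteins, one a marker of tendon and ligament cells and the other of cartilage cells. All probe sets carrying either symbol or one of its synonyms were taken from the deposited arrays, which gave 1 probe set for Tnmd and 1 for Cnmd among 22690 probe sets, or 2 genes of 12394. Both genes passed the filter on dim genes, with 7436 genes kept. The study compared knee (tibio-femoral) joints of double-null mice, which lack both epiphycan (Epyc) and biglycan (Bgn), with those of wildtype mice. Epiphycan and biglycan are small leucine-rich proteoglycans of the extracellular matrix, the first of epiphyseal cartilage and the second of many connective tissues. All animals were males of a C57/Bl6:129 hybrid strain, 3 months old. A sample was a pool of 6 knee joints from 3 mice on 1 array, and there were 3 double-null and 2 wildtype pools. The labels do not say whether the wildtype mice were littermates of the double-null mice.

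Both proteins span the membrane once, with a BRICHOS domain and a cysteine-rich C-terminal domain on the outer side. Chondromodulin is cut by a furin-type protease, and its C-terminal part is secreted into the cartilage matrix, where it is known as an inhibitor of blood vessel ingrowth. Tenomodulin is known as a marker of mature tenocytes and ligament cells under the transcription factor scleraxis, and the loss of tenomodulin in mice alters tendon cell number and collagen fibril size. It is also expressed in adipose tissue. A knee joint holds both sources: articular and growth plate cartilage for Cnmd, and the cruciate and collateral ligaments, tendons and their attachments for Tnmd.

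The stretches before the start of each gene are shown because they are the control regions next to the transcripts that the probe sets measure. They are the 250 bases before the RefSeq start on build GRCm38.p6, printed from 5′ to 3′ along the gene's own strand. Capitals mark matches, on either strand, to an E-box (CANNTG, the kind of site that basic helix-loop-helix factors such as scleraxis bind) or to a SOX core (ACAAT, the kind bound by SOX factors such as SOX9). The Tnmd stretch is chrX:133850758-133851007 on the plus strand, and the Cnmd stretch is chr14:79662184-79662433 on the minus strand.
Tnmd: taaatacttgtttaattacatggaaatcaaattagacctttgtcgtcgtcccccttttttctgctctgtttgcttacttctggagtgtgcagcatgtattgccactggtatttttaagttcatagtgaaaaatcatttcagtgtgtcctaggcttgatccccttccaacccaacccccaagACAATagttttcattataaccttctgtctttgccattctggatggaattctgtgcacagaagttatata
Cnmd: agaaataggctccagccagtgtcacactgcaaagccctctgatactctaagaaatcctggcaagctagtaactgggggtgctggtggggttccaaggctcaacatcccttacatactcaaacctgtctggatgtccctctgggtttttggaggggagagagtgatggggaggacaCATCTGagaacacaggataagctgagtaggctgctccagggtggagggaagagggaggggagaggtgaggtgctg
The Tnmd stretch held 1 SOX core, 69 bases before the start, and no E-box. The Cnmd stretch held 1 E-box, 75 bases before the start, and no SOX core. Of 32851 such stretches in the promoter table, 66.2% held an E-box and 27.7% a SOX core. The letters TATAAA, found in 12.4% of the stretches, were in neither. The Tnmd stretch had 38.4% G and C bases and 2 CpG dinucleotides, and the Cnmd stretch had 54.0% and 0, where the medians over the table were 52.4% and 6. These are matches of letters only, and no value below bears on the binding of a factor.

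The arrays were Affymetrix chips with MAS5 signal on a linear scale, scaled to 1 common level. The values were deposited in 2 tables of identical probe sets, called here table A (double-null pool 3 and wildtype pool 2) and table B (double-null pools 1 and 2 and wildtype pool 1). They belong to different platform records, and the sources used here do not say whether the chips themselves differed. Bgn checked the labels: its least reduced probe set read 211 ± 11.1 in double-null pools and 2708 ± 997 in wildtype pools (mean ± SD, n = 3 and 2). The log2 fold change was -3.48 and limma's adjusted p over 22626 probe sets 0.0034, in a fit where 0.0265% of probe sets passed. Epyc was dim, at 5.17 ± 5.02 in double-null and 85.0 ± 8.79 in wildtype pools (-1.64, limma adjusted p = 0.16). The joint's own markers were well above the 27 probe sets for Bacillus control transcripts, which are not of mouse origin and reached 63.5: the lowest signal over all arrays was 3731 for Col2a1 (cartilage collagen), 3324 for Prg4 (lubricin of the joint surface), 3618 for Ckm (muscle creatine kinase) and 2545 for Ibsp (bone sialoprotein). The samples were whole joints, so a lower share of a cell type and less message per cell cannot be told apart.

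Tnmd signal was higher in every double-null pool than in either wildtype pool. It read 313, 223 and 323 in double-null pools 1, 2 and 3, against 97.8 and 183 in wildtype pools 1 and 2. The groups did not overlap, but the gap between the lowest double-null pool (223) and the higher wildtype pool (183) was smaller than the distance between the wildtype pools themselves. The means were 286 ± 55.2 in double-null pools and 140 ± 60.2 in wildtype pools (SD, n = 3 and 2). The log2 fold change of double-null over wildtype pools, fitted to log2(signal + 32) with the table as a term, was 1.03 ± 0.21 (SE), or 2.05-fold, with a 95% interval from 0.58 to 1.48 before any adjustment for the number of genes. It missed the threshold of 0.05 over the 7436 genes tested (limma, unadjusted p = 0.00031, Benjamini-Hochberg adjusted p = 0.10). In the same fit 0.121% of genes passed the threshold, 0.0807% upward and 0.0403% downward. Tnmd ranked 23 of 7436 by p.

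Cnmd signal was lower in every double-null pool than in either wildtype pool, by a small margin on one of them. It read 425, 414 and 439 in double-null pools 1, 2 and 3, against 684 and 475 in wildtype pools 1 and 2. The double-null pools lay close together, whereas wildtype pool 1 stood well above wildtype pool 2. The means were 426 ± 12.5 in double-null pools and 579 ± 148 in wildtype pools (SD, n = 3 and 2). The log2 fold change was -0.43 ± 0.19 (SE), or 0.743-fold, with a 95% interval from -0.84 to -0.016 before adjustment. It did not pass (limma, unadjusted p = 0.043, adjusted p = 0.78), and Cnmd ranked 410 by p. Groups fully apart were common among all genes: for 9.45% of genes all double-null arrays exceeded both wildtype arrays, as for Tnmd, and for 10.2% all were lower than both, as for Cnmd.

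**Figure D1:**
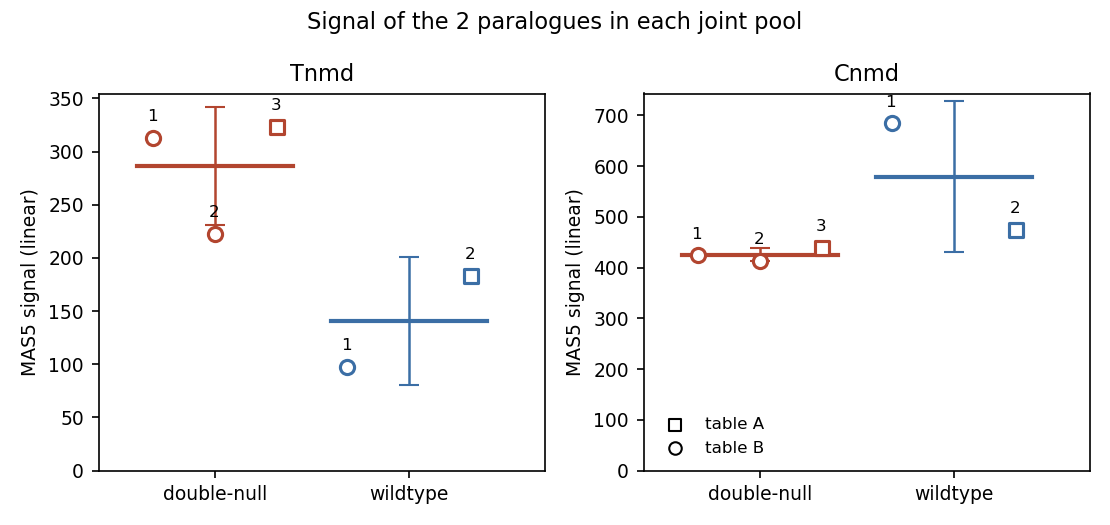
MAS5 signal (linear scale) of Tnmd and Cnmd in each pool, with the 3 double-null pools left of the 2 wildtype pools. Numbers are pool numbers, squares are table A, circles are table B, and thick and thin lines are the group mean and SD. The Tnmd pools run from 223 to 323 in double-null and from 97.8 to 183 in wildtype joints, and the Cnmd pools from 414 to 439 and from 475 to 684.

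The direction of each gene was the same in both tables, and the size was larger in table B for both. For Tnmd the log2 difference was 0.74 in table A, where double-null pool 3 is set against wildtype pool 2, and 1.25 in table B, where double-null pools 1 and 2 are set against wildtype pool 1. For Cnmd it was -0.10 in table A and -0.67 in table B. The table A values rest on 1 array a group and have no test. Wildtype pool 1 was the extreme wildtype pool for both genes, with the lowest Tnmd and the highest Cnmd signal of all 5 arrays. Because each table had a single wildtype pool, the table and the wildtype pool cannot be told apart.

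Leaving out single pools moved both genes. Without wildtype pool 1 the Cnmd difference was -0.098 (limma adjusted p = 0.999). It was -0.68 when wildtype pool 2 or double-null pool 3 was left out (limma adjusted p = 0.44 and 0.41). Tnmd stayed between 0.75 and 1.26 without any single pool. Tnmd passed the threshold in 1 of 16 alternatives, without double-null pool 2 (1.11, limma adjusted p = 0.0006). Its log2 fold change there was little different from the 1.03 with all arrays. That fit has fewer residual degrees of freedom, and many other genes passed in it too: 52 genes in all, against 9 with all arrays. The sign of Tnmd was positive and that of Cnmd negative under each of the 16 alternatives, several of which compare the groups within 1 table only.

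**Figure D2:**
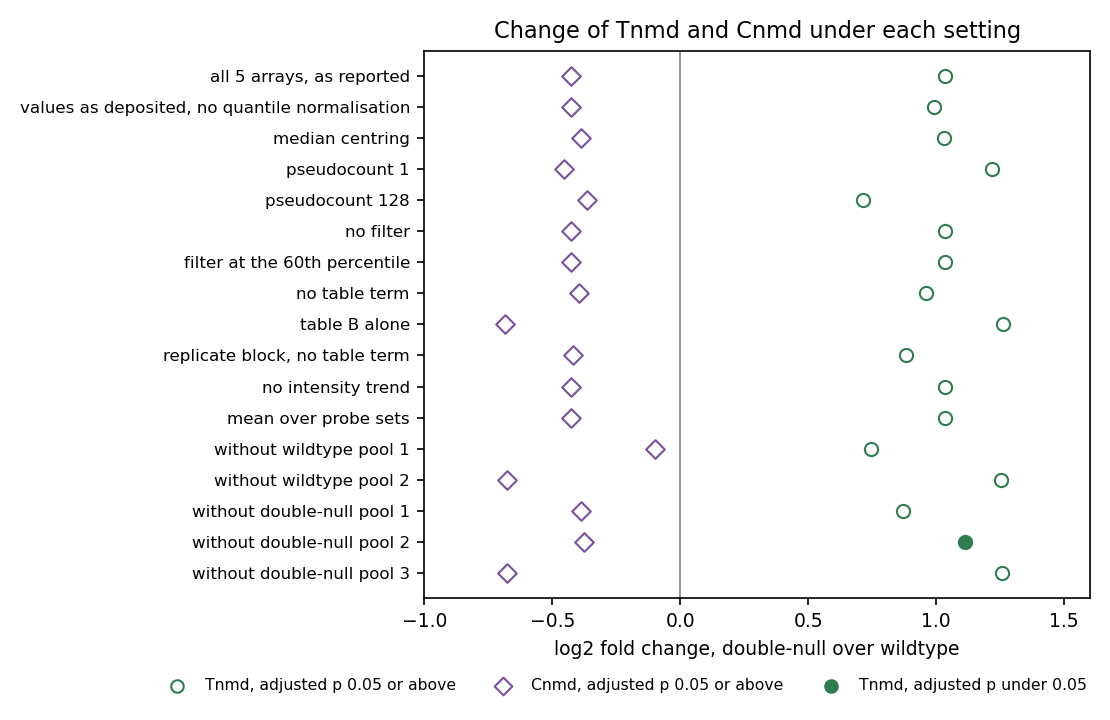
Log2 fold change of Tnmd (green circles) and Cnmd (purple diamonds), double-null over wildtype, with all 5 arrays (top) and under each of the 16 alternatives. Filled symbols mark an adjusted p under 0.05. Tnmd lies between 0.71 and 1.26 and is filled once, and Cnmd lies between -0.68 and -0.098 and is never filled.

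To ask whether the paralogues differed in their change, the log2 value of Cnmd was subtracted from that of Tnmd within each array, which removes any scaling of a whole array. A probe set's level cannot be set against that of another probe set, so only the difference between groups is read. The within-array difference was -0.38, -0.80 and -0.42 in double-null pools 1, 2 and 3, against -2.51 and -1.26 in wildtype pools 1 and 2. All double-null pools lay above both wildtype pools. The group difference was 1.36 on the log2 scale, a change of the Tnmd to Cnmd ratio by 2.56-fold. An exact two-sided permutation test over the 10 arrangements gave p = 0.1, the smallest p that 3 against 2 arrays allow. Each gene alone also reached this smallest value in the exact permutation test. The groups were already fully apart for each gene, upward for Tnmd and downward for Cnmd. Full separation of the within-array difference follows from that, so the permutation test cannot decide whether the paralogues changed unequally. The 2 tables gave differences of 0.84 (table A) and 1.93 (table B). Leaving out wildtype pool 1 gave 0.73.

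Genes of the tendon and ligament matrix were set beside Tnmd. Of 21 tested members of the list, 18 lay above 0 in log2 fold change and the median was 0.59, where 47.9% of all genes tested were positive and their median was -0.01. Past the threshold over all genes, 3 rose and 0 fell, where 0.0807% of all genes tested rose and 0.0403% fell. Those 3 were Col3a1, a fibrillar collagen (1.46), Lum, the fibril-binding proteoglycan lumican (1.19), and Col6a1, a chain of the pericellular collagen VI (1.23). In limma's fit Col3a1 had an adjusted p of 0.0025, Lum of 0.040 and Col6a1 of 0.043. Dpt, encoding the fibril-associated protein dermatopontin, was at 0.998 (limma adjusted p = 0.0504, just above the threshold). The list median was 0.67 in table A and 0.66 in table B. The summed signal of the 22 measured genes was 62493 to 70590 in double-null and 41805 to 62903 in wildtype pools, so the sums overlapped.

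The log2 fold change of Tnmd was exceeded by 5 of these 21 genes, namely Col3a1, Lum, Col6a1, Col6a2 and Aspn, and it was larger than that of the other 16. Its place depended on the table: 9 of the 21 exceeded Tnmd in table A, and 1 (Col3a1) in table B. The main fibrillar collagen genes of tendon and bone, Col1a1 (-0.04) and Col1a2 (-0.06), were near 0. The wildtype pools differed between Tnmd and the list. Tnmd was lower in wildtype pool 1 than in wildtype pool 2, by 0.74 on the log2 scale, whereas 14 of the 21 matrix genes were higher in wildtype pool 1, with a median difference of 0.08. Over all pathway lists, 0 members passed when double-null pool 3 was left out, 5 when double-null pool 1 was, and 10 when double-null pool 2 was. In the same fits 3, 18 and 52 of all 7436 genes passed, so the list counts moved with those of all genes.

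Regulators of tendon cells were mostly dim in whole joints. Of 12 listed, 10 had a probe set with 1 symbol and 3 passed the filter, and none of the 3 passed the test. Tgfbr2, the type II TGF-beta receptor, was at 0.24 (1273 ± 157 in double-null and 1051 ± 63.3 in wildtype pools). Egr1, a zinc finger factor induced by mechanical load in tendon, was at 0.18 (508 ± 58.6 and 442 ± 35.1), and at -0.02 without wildtype pool 1. Tgfb3, a TGF-beta ligand, was at -0.09 (164 ± 20.3 and 185 ± 5.55). The limma adjusted p was 0.918 for Tgfbr2, 0.985 for Egr1 and 0.986 for Tgfb3.

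Cartilage matrix genes were set beside Cnmd. Of 12 tested members 3 were above 0 and 9 below, the median was -0.20, and none passed the test. By table the median was 0.25 (A) and -0.40 (B). When wildtype pool 1 was left out the median was 0.34, with 10 of 13 tested members above 0. With all 5 arrays Cnmd lay beside Col9a1, a chain of collagen IX on the surface of cartilage fibrils, at -0.42 (826 ± 64.8 in double-null and 1069 ± 215 in wildtype pools, limma adjusted p = 0.74). In table A, 3 of the 12 genes (Col9a1, Hapln1 and Scrg1) were more negative than Cnmd, and in table B 2 were (Col2a1 and Col9a3). Scrg1 was at -0.29, and Snorc, a membrane proteoglycan of chondrocytes, was at -0.30 with all arrays but at 0.10 in table A. Comp, a pentameric protein of cartilage, tendon and ligament, went the other way at 0.83 (4367 ± 704 in double-null and 2423 ± 614 in wildtype pools, limma adjusted p = 0.11).

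Wildtype pool 1, which gave the highest Cnmd signal, was also high for cartilage matrix as a whole. All 12 tested members were higher in wildtype pool 1 than in wildtype pool 2, by a median of 0.43 on the log2 scale, beside 0.51 for Cnmd. The summed signal of the 15 measured cartilage matrix genes was 15759 to 17248 in double-null pools, against 22824 in wildtype pool 1 and 11988 in wildtype pool 2. The double-null sums thus lay between those of the wildtype pools. These sums are of deposited signals, before quantile normalisation, so they can also carry differences in array scale. Summed neutrophil markers read 123310 and 76779 in wildtype pools 1 and 2. Their normalised level (median log2 value minus gene mean) was 0.033 and 0.021 there. For cartilage matrix that level was -0.091, -0.065 and 0.061 in double-null pools 1, 2 and 3. It was 0.30 and -0.11 in wildtype pools 1 and 2. The part of the cartilage content in the Cnmd difference was not tested. Among regulators of cartilage, 7 of 12 were tested and none passed. Pth1r, the parathyroid hormone receptor, was at -0.52, with 0.19 without wildtype pool 1, and Trps1, a repressor of the growth plate, was at 0.37. Sox6, a partner of SOX9, was at 0.31 with overlapping groups (422 ± 306 in double-null and 407 ± 292 in wildtype pools), and the zinc finger factor Sp3 was at -0.24, with -1.06 in table A and 0.38 in table B.

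**Figure D3:**
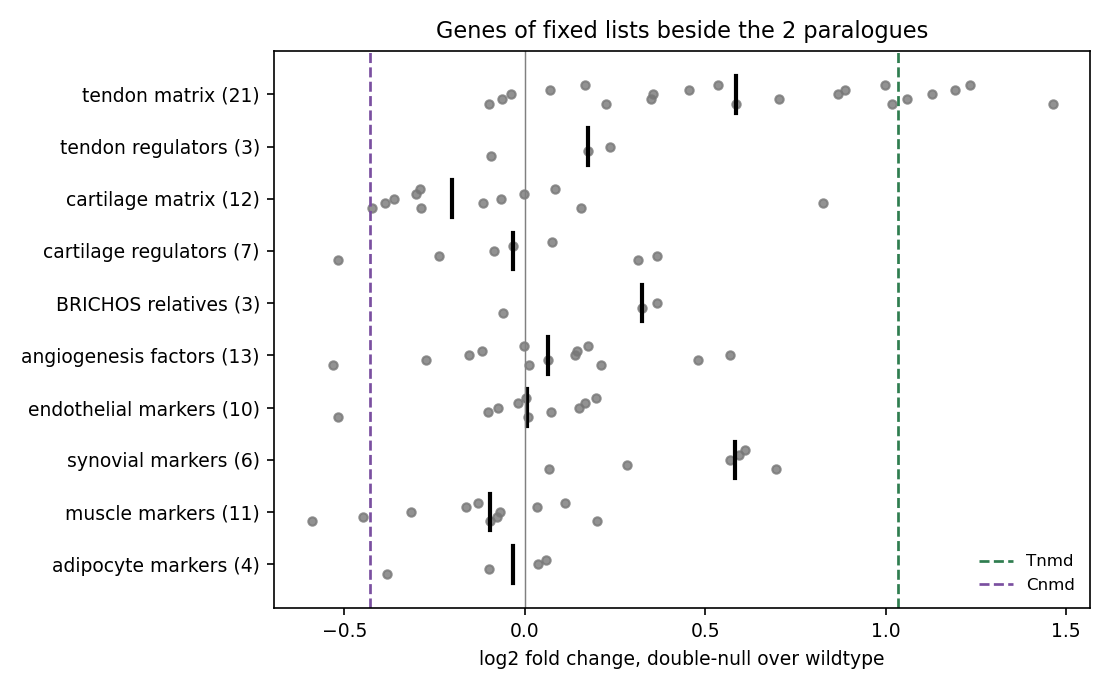
Log2 fold change, double-null over wildtype, of each tested gene (grey points) in the lists, with the number tested in brackets, the list median as a black bar, and Tnmd and Cnmd as dashed lines. The tendon matrix median is 0.59 and the synovial marker median 0.58. The Tnmd line at 1.03 lies below 5 of the 21 tendon matrix genes in this fit of all 5 arrays, and the Cnmd line at -0.43 lies beside the lowest cartilage matrix gene at -0.42.

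Of the other genes for proteins with a BRICHOS domain, 3 were tested and none passed. Itm2a, a single-pass membrane protein of developing cartilage and bone, read 605, 446 and 528 in double-null pools 1, 2 and 3, against 419 and 401 in wildtype pools 1 and 2. Its groups did not overlap and its log2 fold change was 0.33 (limma adjusted p = 0.86), with a second probe set at 0.79. Itm2c, expressed in brain and other tissues, read 1204, 1008 and 995 in double-null pools, against 805 and 788 in wildtype pools (0.37, limma adjusted p = 0.81). Itm2b, a broadly expressed member whose human mutations cause familial dementias, had its brightest probe set at -0.06 and the next at 0.095.

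The remaining members of the family are markers of other organs. Sftpc, the lung surfactant protein C, read 41.9 ± 12.4 in double-null and 80.9 ± 15.2 in wildtype pools, and Gkn2, a gastric protein, read 31.6 ± 18.0 and 51.0 ± 3.34. Gkn1, a gastric mucosal protein, read 19.4 ± 4.17 and 6.79 ± 4.76, at or below the highest Bacillus control of each array. All of these lay below the filter and were not tested over genes, and Gkn3 and Bricd5 were not analysed here.

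Since chondromodulin and tenomodulin are known as inhibitors of angiogenesis, blood vessel genes were examined with them. Of 10 tested endothelial markers 6 were above 0 and 4 below, and none passed. The median was 0.0057, with 0.24 in table A and -0.18 in table B. Their summed signal was 1832 to 2416 in double-null and 2011 to 2469 in wildtype pools. Among 13 tested angiogenesis factors and inhibitors the median was 0.06 and none passed. Thbs2, an angiogenesis inhibitor of the thrombospondin family, was at 0.57, with 1.01 in table A and 0.24 in table B, and Col18a1, whose collagen chain yields endostatin, was at 0.48. Hif1a, the oxygen-regulated transcription factor, gave -0.53 by its brightest probe set and 0.33 by another, so its direction is not settled. Vegfb, a member of the vascular growth factor family, was at -0.27, with 0.020 in table A and -0.50 in table B.

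Markers of other joint tissues were read for both paralogues. All 6 tested markers of synovial lining and sublining had positive values, with a median of 0.58 in the fit of all arrays, 0.40 in table A and 0.41 in table B. The median was 0.36 when double-null pool 2 was left out, and 5 of 6 were positive when wildtype pool 1 was left out. None passed the test. In 4 of the 6 all double-null arrays exceeded both wildtype arrays, as they did for 9.45% of all genes tested. Their summed signal was 6609 to 9329 in double-null and 5233 to 8030 in wildtype pools, so the sums overlapped, and no measured marker lay at or below the controls. The part of synovial tissue in the Tnmd difference was not tested. Muscle markers had sums of 36160 to 83432 in double-null and 56565 to 71639 in wildtype pools, with a median of -0.096 over 11 genes. That median was -0.26 when double-null pool 1 was left out, 0.0052 when double-null pool 2 was and 0.048 when wildtype pool 1 was, so its sign is not settled. The lowest muscle sum was in double-null pool 2, which also had the lowest Tnmd signal of the double-null pools, and the part of muscle content in that was not tested. Adipocyte markers had a median of -0.03 over 4 tested genes and sums of 8321 to 10511 in double-null and 10103 to 11339 in wildtype pools, and of their 7 measured genes Lep lay at or below the controls.

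The genes whose profile over the 5 pools lay nearest to that of Tnmd were found by the root mean square difference between centred log2 values, over the 7435 other genes. The nearest were Igf1, the growth factor IGF1 (0.11), BC023105 (0.14), Postn, the matrix protein periostin (0.17), C1s1, a protease of the classical complement pathway (0.18), and Fndc1 (0.18), where the median gene was at 0.58. Igf1 read 608, 355 and 625 in double-null pools 1, 2 and 3, against 191 and 310 in wildtype pools 1 and 2, and ranked the pools as Tnmd did. Its log2 fold change was 1.08 (limma adjusted p = 0.10) by its brightest probe set. Its 3 probe sets ran from 0.18 to 1.08, and the mean over them gave 0.50. BC023105 was at 1.15, C1s1 at 1.04 and Postn at 0.76, and Fndc1 read 268 ± 63.6 in double-null and 123 ± 28.8 in wildtype pools. None passed the test with all 5 arrays.

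For Cnmd the nearest profiles were those of Arhgef1 (0.04), Tmem189 (0.04), Serpinf2, the antiplasmin of plasma (0.04), Edem2, of the glycoprotein degradation pathway (0.05), and Cryz, zeta crystallin (0.06), where the median gene was at 0.30. None of them encodes a cartilage matrix protein. Each was highest in wildtype pool 1. Arhgef1 read 691, 629 and 716 in double-null pools 1, 2 and 3, against 1030 and 736 in wildtype pools 1 and 2. The log2 fold changes ran from -0.52 for Cryz to -0.38 for Edem2 and none passed. These likenesses describe 5 arrays that share the same normalisation.

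**Figure D4:**
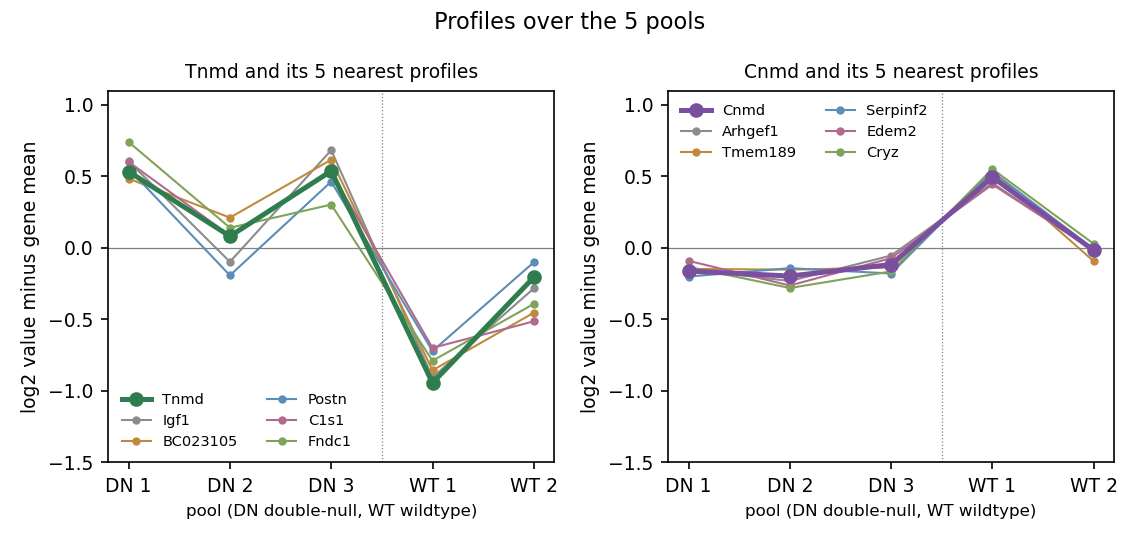
Log2 value minus the gene's mean in each pool (3 double-null, then 2 wildtype) for Tnmd (left) and Cnmd (right) with the 5 genes of nearest profile. Lines join the points of a gene and stand for no order of the pools. The Tnmd set is high in double-null pools 1 and 3 and lowest in wildtype pool 1, and the Cnmd set stands out in wildtype pool 1 alone.

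Tnmd is annotated on chromosome X, as is Bgn, and Cnmd on chromosome 14, while Epyc is on chromosome 10 (GRCm38.p6).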

How the data were processed

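Joint RNA was labelled with biotin and hybridised to Affymetrix chips, per the labels. The deposited values are signal intensities per probe set, for which the submitters' processing notes name MAS5; the sources used here give neither a version nor a scaling target. The number of arrays limits the precision, and detection calls were not used. Of 22690 probe sets, 20393 carried 1 gene symbol on the platform, 691 several and 1606 none. Entrez numbers matched 20364 of them to the GRCm38.p6 gene table for current symbols. Promoter sequences are from RefSeq, and both genes matched.

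Values were taken as log2(signal + 32), which understates the change of dim genes, and were quantile normalised. Signals and their sums over a list are the deposited values, without this normalisation. Each gene was represented by its brightest probe set and kept if its mean exceeded the 40th percentile (a signal near 98.5). Testing used limma 3.58.1 in R 4.3.3, two-sided, with the table as a term and an intensity trend. There were 2 residual and 9.85 prior degrees of freedom, p-values were adjusted by Benjamini and Hochberg's method, and the threshold was 0.05. Bgn and Epyc were fitted over all 22626 non-control probe sets. Data were simulated for 7436 genes in this comparison, 200 of them changed. The fit gave back 94.8% of changes of 1 and 100% of changes of 2 on the log2 scale, with 6.44% of calls false. The simulated noise was independent between genes and pools and used the fitted variances. More genes were changed (200) than the 9 called in the real data. These shares therefore do not give the power of the real comparison.

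The genes named were both members, Bgn and Epyc, the measured BRICHOS relatives, up to 4 genes of smallest p from each other pathway list, and the 5 nearest profiles of each member. Col1a1, Col1a2, Col6a2 and Aspn were named after their values were seen, and Col2a1, Col9a3 and Hapln1 were set beside Cnmd by where their values lay. Members and lists were chosen with earlier results of these data known, so they are no independent support. Of 34 genes named by the rule above (other than Bgn, Epyc and dim relatives), 9 kept several probe sets after filtering, which differed in sign for Hif1a and Itm2b. Markers of erythroid cells, neutrophils, osteoblasts and hypertrophic cartilage had medians of 0.047, -0.077, -0.066 and 0.0094, with none past the threshold. Alternatives were other scalings, pseudocounts, filters, covariates and probe-set summaries, and leaving out each array.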

Additional observations from a re-analysis of the deposited data

How the results depend on the processing

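Of 16 alternatives, Tnmd kept its direction in 16 (log2 fold change 0.71 to 1.26, adjusted p 0.0006 to 0.999) and passed in 1, without double-null pool 2 (1.11); leaving out single pools gave 0.75 to 1.26. Cnmd kept its direction in 16 (-0.68 to -0.098, adjusted p 0.41 to 0.999) and passed in none, with -0.68 to -0.098 when single pools were left out. The Tnmd minus Cnmd difference ran from 0.73 to 1.99 over 10 alternatives. Of the 32 other named genes, 24 kept their sign throughout. Over fits that leave out 1 pool, Egr1 ran from -0.022 to 0.33, Itm2b from -0.23 to 0.16, Pth1r from -1.06 to 0.19, Snorc from -0.60 to 0.10, Sp3 from -1.07 to 0.38 and Vegfb from -0.50 to 0.020. Sp3 was at 0.39 in table B alone, and the mean over probe sets put Hif1a at 0.058.

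The 9 genes past the threshold became 5 with the deposited scaling, 2 with no filter, 4 with no table term, 2 in table B alone and 2 to 52 when single pools were left out. The 3 pathway list members past the threshold became 1 with the deposited scaling, with median centring, with no table term, with no intensity trend and with the mean over probe sets. They became 0 with no filter and in table B alone, and 0 to 10 when single pools were left out. Of 4 Bgn and Epyc probe sets 3 passed, 0 in table B alone and 0 to 3 when single pools were left out. The causes were not tested.

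The groups share replicate numbers, and the sample titles do not say whether these pair the pools. Same-numbered pools correlated at 0.0065 and -0.18 in their deviations from group means, over genes. With 2 wildtype pools these deviations mirror each other. Each double-null pool thus gives the same value with opposite sign for the other wildtype pool, so the correlations cannot settle a pairing. With a replicate block in place of the table term, 0 genes and 0 list members passed, Tnmd was at 0.88 (adjusted p = 0.71), Cnmd at -0.42 (adjusted p = 0.71) and Sox6 at -0.45. The muscle marker median was then -0.58, with 0 of 11 genes positive. That fit has fewer residual degrees of freedom.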
